A study of Mus musculus with 12 samples.

Results

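The SOX genes encode transcription factors that share the HMG-box DNA-binding domain first recognized in the sex-determining factor SRY. The 10 genes described here are Sox1, Sox2 and Sox3 (class SoxB1), Sox4, Sox11 and Sox12 (SoxC), Sox5 and Sox6 (SoxD), and Sox8 and Sox9 (SoxE), chosen by gene symbol from the 24091 genes of the expression table, and all 10 were found. In the developing nervous system SoxB1 factors maintain the undifferentiated state of neural progenitors, and SoxC factors act in neuronal precursors as these leave the cell cycle and switch on neuronal genes. SoxE factors specify glia, with Sox9 marking astrocytes and the Bergmann glia of the cerebellum and Sox8 acting beside Sox10 in oligodendrocytes, while the SoxD factors, which lack a transactivation domain of their own, modulate the activity of other SOX proteins.

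RNA was sequenced from 12 tissue samples of mice, 3 in each of 4 groups, to compare medulloblastomas of Brca2-mut;Trp53-mut mice with cerebellum. The tumors and the adjacent cerebellum came from the same 3 mice of that genotype (GB344, GB359 and GB370), in which Cre driven by the human GFAP promoter removes Brca2 exons 3 and 4 from cells of the developing central nervous system and Trp53 is disrupted in the whole animal. The controls were tumor-free cerebella of 3 Brca2-mut;Trp53-WT mice (GB361, GB508 and GB512), which carry only the Brca2 deletion, and of 3 Brca2-WT;Trp53-mut mice (GB517, GB519 and GB520), which carry only the Trp53 disruption. Every sample therefore carried at least 1 of the 2 mutations, cerebellum wild-type for both genes was not analysed here, and no age is given per sample. Values are TPM, transcript abundances that correct for transcript length and are scaled to nearly the same total in each sample, so levels can be compared between genes, but the read depth behind them is unknown.

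Before the results, the samples were checked against the labels. The 6 granule cell progenitor markers summed to between 990 and 1956 TPM in the tumors and to between 33.2 and 58.0 TPM in the controls. The adjacent cerebella stood between the groups and apart from one another, at 585 TPM in GB344, 460 TPM in GB359 and 77.7 TPM in GB370. Control GB512 had 5.63 TPM of the proliferation gene Mki67, against 0.180 to 0.343 TPM in the other 5 controls, with Atoh1, which defines granule cell progenitors, at 0.0689 TPM. Gene-level Brca2 was 11.2 ± 3.18 TPM in the tumors and 3.57 ± 0.205 TPM in the Brca2-mut;Trp53-WT controls against 3.78 ± 0.583 TPM in the Brca2-WT;Trp53-mut controls (SD, n = 3). The Brca2 allele lacks only some exons, so these sums over whole transcripts do not check the genotypes.

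SoxC genes held the largest share of the 10 members' summed level in the tumors. Sox4, Sox11, Sox12 and Sox9 were called higher in the 3 tumors than in the 6 control cerebella, 4 of the 10 members where 14.4% of all 16241 genes tested were called higher. None of the 10 was called lower, where 21.5% of all genes were. A gene was called when its difference on the log2(TPM + 1) scale was at least 1 in size at an adjusted p under 0.01 (limma, Benjamini-Hochberg over all genes tested). At an unadjusted p under 0.05, 5 members were higher and 2 were lower. The share of all genes at this unadjusted p was not counted, here or in the comparisons below. The share of all genes without overlap between groups was likewise not counted. At an adjusted p under 0.05 without a fold minimum, Sox2 and Sox8 were lower, as were 39.5% of all genes. Sox1 joined the 4 called members as higher at this threshold, and the share of all genes higher is not given. The median log2 difference of the 10 members was 0.70, beside −0.11 for all genes tested. In bulk tissue, fewer cells of a type and less RNA per cell cannot be told apart. The p-values rest on the spread between mice, and here the 6 controls of both genotypes were fitted as a single group.

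**Figure D1:**
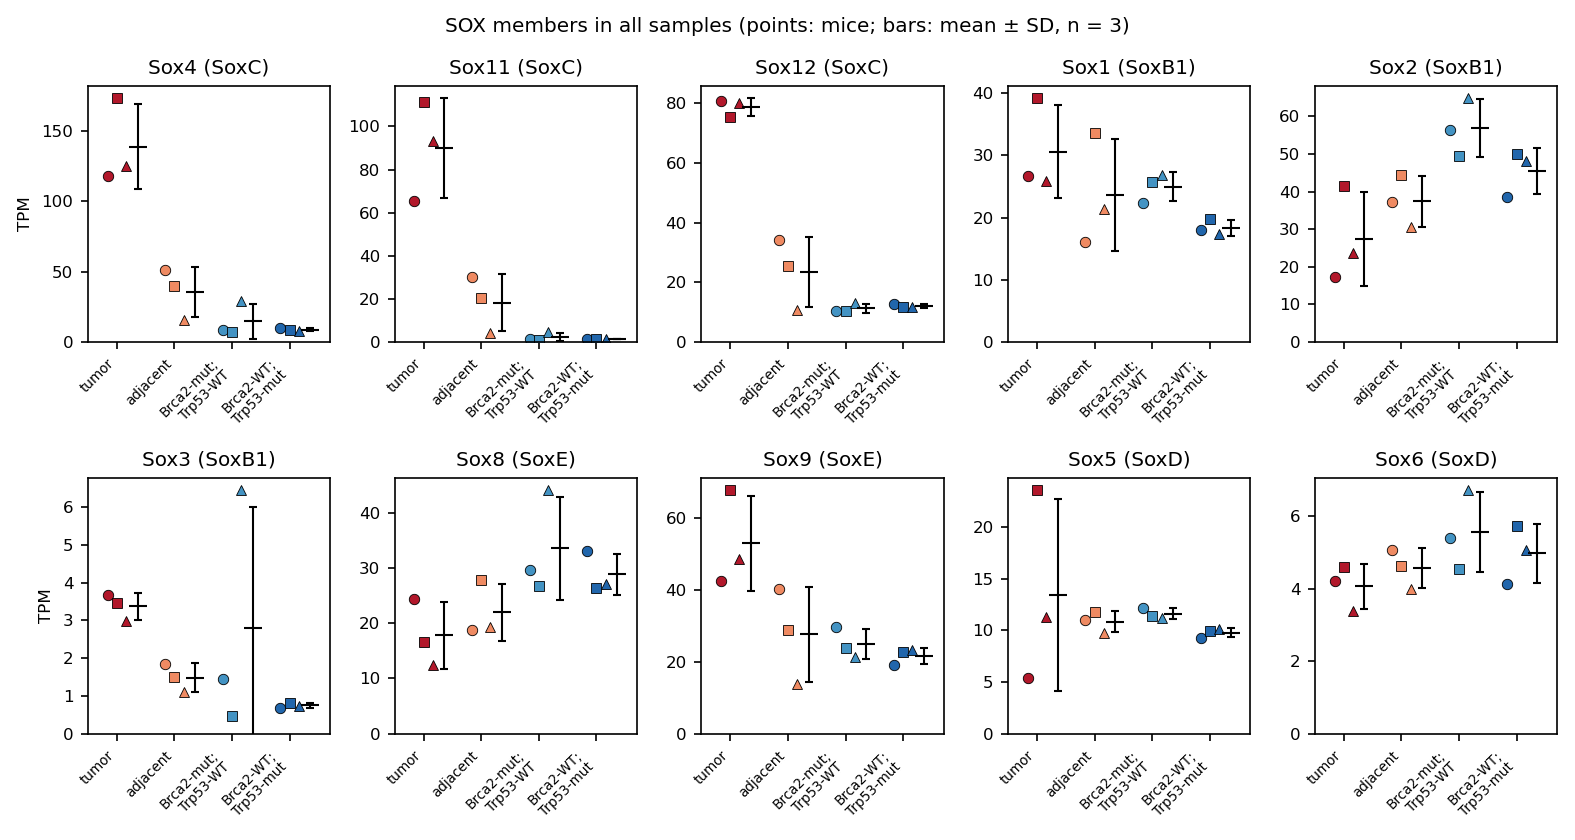
TPM of the 10 SOX members in each of the 12 samples, with a linear axis from 0 in every panel. Circles, squares and triangles are the 3 mice of a group in the order given in the text, so that tumor and adjacent samples of 1 mouse share a symbol, and the black bars are the mean ± SD of each group (the lower bar of Sox3 in Brca2-mut;Trp53-WT is cut at 0). The 3 tumors lie above all other samples for Sox4, Sox11 and Sox12, while Sox8 is lower in the 3 tumors than in all 6 controls.

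The summed level of the 10 members was higher in the tumors, and its balance between classes differed. The 10 members summed to 457 ± 88.0 TPM in the tumors, 205 ± 64.2 TPM in adjacent cerebellum (SD, n = 3) and 170.5 ± 30.2 TPM in the controls (SD, n = 6). SoxC accounted for 308 ± 48.3, 77.1 ± 43.1 and 25.3 ± 10.7 TPM of these sums, while SoxB1 accounted for 61.4 ± 19.8, 62.5 ± 14.6 and 74.6 ± 13.9 TPM. As a share of the 10 members, SoxC was 67.5% ± 2.69 in the tumors, 35.4% ± 11.8 in adjacent cerebellum and 14.5% ± 3.48 in the controls. SoxB1 had the reverse order, with 43.7% ± 2.76 of the controls' sum, 32.1% ± 9.19 in adjacent cerebellum and 13.2% ± 1.63 in the tumors. SoxE held 15.6% ± 1.50 of the tumors' sum and 32.3% ± 2.32 of the controls', and SoxD 3.66% ± 1.31 and 9.46% ± 0.854. The mean sums of these classes were not lower in the tumors. SoxE summed to 70.9 ± 12.2 TPM in the tumors and 54.6 ± 6.51 TPM in the controls, and SoxD to 17.5 ± 9.62 and 16.0 ± 1.68 TPM. Neither the SoxC nor the SoxB1 shares of the tumors overlapped those of any other sample. With the 9 further SOX genes added, SoxC held from 40.9% to 47.8% of the summed level of 19 SOX genes in the tumors, from 17.1% to 31.9% in adjacent cerebellum and from 8.29% to 16.4% in the controls.

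The rank order of the genes turned over with the classes. Sox4 was the most abundant member in all 3 tumors and in adjacent cerebellum GB344, and Sox11 and Sox12 followed it in each tumor. Sox2 was the most abundant member in all 6 controls and Sox8 came next, where Sox11 ranked 9 or 10. Sox3 was the least abundant member in 10 of the 12 samples.

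**Figure D2:**
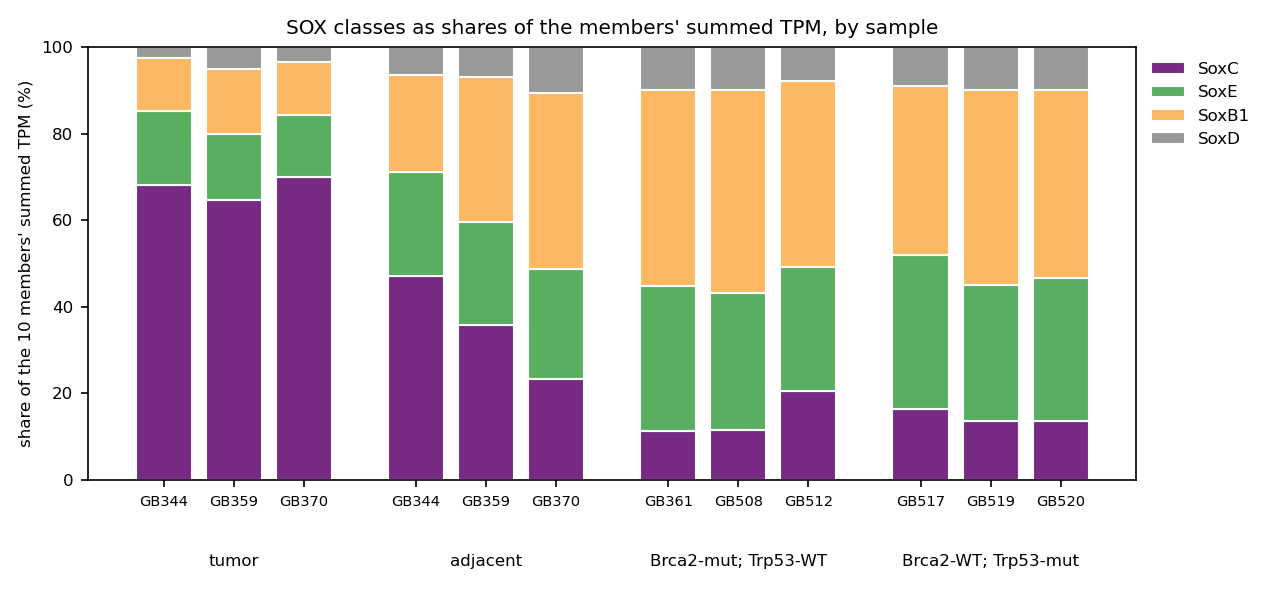
Share of the 10 members' summed TPM held by each SOX class, in percent, 1 bar per sample with the mouse under it. SoxC holds from 64.6% to 70.0% in the tumors, from 23.4% to 47.0% in adjacent cerebellum and from 11.2% to 20.5% in the controls.

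The SoxC genes are compact: Sox4 and Sox11 have a single exon and the coding transcripts of Sox12 have 1 or 2. The 250 bases before the annotated start of each are shown because all 3 genes were called higher in the tumors. They are from RefSeq (GRCm38.p6, the mm10 assembly used for the expression values), written 5′ to 3′ on the strand of the gene, with matches to an E-box, CAGCTG, in capitals:

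Sox4, chr13:28953700-28953949, minus strand: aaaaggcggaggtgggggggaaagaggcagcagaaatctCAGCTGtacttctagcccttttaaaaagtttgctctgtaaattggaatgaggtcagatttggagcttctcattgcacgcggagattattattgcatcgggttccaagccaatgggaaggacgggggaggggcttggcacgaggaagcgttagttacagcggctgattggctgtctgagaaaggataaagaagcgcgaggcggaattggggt

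Sox11, chr12:27342719-27342968, minus strand: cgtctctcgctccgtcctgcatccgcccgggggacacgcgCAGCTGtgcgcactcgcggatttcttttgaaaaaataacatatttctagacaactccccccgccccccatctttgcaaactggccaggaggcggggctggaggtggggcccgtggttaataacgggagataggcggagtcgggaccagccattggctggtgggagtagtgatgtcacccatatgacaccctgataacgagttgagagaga

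Sox12, chr2:152398047-152398296, minus strand: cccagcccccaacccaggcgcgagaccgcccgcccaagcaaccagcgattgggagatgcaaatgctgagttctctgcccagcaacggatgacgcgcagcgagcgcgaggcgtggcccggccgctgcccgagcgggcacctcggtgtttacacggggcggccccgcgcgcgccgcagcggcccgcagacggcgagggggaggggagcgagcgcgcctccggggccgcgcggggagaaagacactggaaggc

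The E-box, a site of basic helix-loop-helix factors, stood in the windows of Sox4 and Sox11 and was not matched in that of Sox12, which has no capitals. Among the other members with a window (8 of the 10 matched, Sox3 and Sox9 did not) it was found only in 1 of the 6 windows of Sox6, and 13.0% of all 32851 RefSeq windows of the same length hold it. A GLI site, GACCACCCA or its complement, was in no member's window, where 0.225% of all windows have one. The SP site GGGCGG or its complement was present in Sox1, Sox2, Sox8, Sox11, Sox12 and 1 window of Sox6, that is in 6 of the 8 members, and in 32.7% of all windows. These figures are not alike, since the first counts members and the second windows, and Sox6 has 6 windows. A G-quadruplex pattern, 4 runs of at least 3 G or of at least 3 C with 1 to 7 bases between them, was matched in Sox1 and Sox2, in both overlapping an SP site, and in no SoxC window (16.7% of all windows), and the MYC E-box CACGTG only in Sox8 (6.02%). The SOX sites ACAAAG (16.5% of all windows) and ACAATG (10.7%) and their complements were in no SoxC window, and were matched in Sox2 and Sox6 and in Sox5 and Sox6. These are matches of letters, not sites shown to be bound.

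Sox4, which acts in neuronal precursors and is also widely expressed in tumors, measured 118, 173 and 125 TPM in the tumors of GB344, GB359 and GB370. It was 51.0, 39.5 and 15.7 TPM in the adjacent cerebellum of these mice, 8.22, 7.11 and 29.1 TPM in Brca2-mut;Trp53-WT and 10.2, 8.46 and 7.89 TPM in Brca2-WT;Trp53-mut cerebellum. Every tumor was above every other sample, and GB512 was the one control well above 10.2 TPM. The mean in the tumors was 11.7 times that in the controls, a log2 difference of 3.60 (SE 0.37, adjusted p = 8.85e-06).

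Sox11, a close relative of Sox4 that activates neuronal genes, had the largest difference of the 10 members. It measured 65.5, 111 and 93.4 TPM in the tumors and 30.4, 20.3 and 4.14 TPM in adjacent cerebellum. In the controls it was between 1.12 and 1.40 TPM except in GB512, which had 4.72 TPM. Tumors and controls did not overlap, and the tumor mean was 49.1 times the control mean, with a log2 difference of 5.08 (SE 0.31, adjusted p = 2.00e-07). Without GB512 the difference was 5.30.

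Sox12, the weakest activator of the class, varied least between tumors relative to its mean. The tumors had 81.0, 75.5 and 80.0 TPM, adjacent cerebellum 34.3, 25.4 and 10.8 TPM, and the 6 controls between 10.3 and 13.1 TPM. The tumor level was 6.77 times that of the controls (log2 difference 2.66, SE 0.098, adjusted p = 1.66e-08), and GB512, at 13.1 TPM, was close to the other controls.

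Against the Brca2-WT;Trp53-mut cerebella alone, which share the Trp53 disruption with the tumors, 5 of the 10 members were called higher (13.5% of the 15970 genes tested) and none lower (22.3% of genes; 2 members were lower at an unadjusted p under 0.05, and Sox8 at an adjusted p under 0.05 without a fold minimum, as were 38.1% of genes). One of the 5, Sox3, was under 1 TPM in all 3 controls and entered the test through the tumors alone, and with a filter of 5 TPM the count was 4. The 5 were Sox11 (log2 difference 5.30, SE 0.20), Sox4 (3.81, SE 0.18), Sox12 (2.62, SE 0.098), Sox3 (1.32, SE 0.14) and Sox9 (1.23, SE 0.19). At an adjusted p under 0.05 without a fold minimum Sox1 was higher too, and the share of all genes higher is not given. This comparison shares its samples with the preceding one and is no separate evidence. Its median log2 difference was 0.96 over the members and −0.16 over all genes tested.

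The SoxB1 genes gave no call against the 6 controls and differed in direction. Sox1, a progenitor factor also kept by Bergmann glia, measured 26.7, 39.2 and 25.8 TPM in the tumors, 16.0, 33.5 and 21.4 TPM in adjacent cerebellum and between 17.3 and 26.8 TPM in the controls. The tumors and controls overlapped, and the log2 difference of 0.47 (SE 0.18, adjusted p = 0.0339) was not called. Against the Brca2-WT;Trp53-mut cerebella, at 18.1, 19.8 and 17.3 TPM, all 3 tumors were higher, by 0.68 on the log2 scale (adjusted p = 0.0130), which was also under the fold minimum.

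Sox2, the best-known factor of neural stem cells, was lower in tumors GB344 and GB370, at 17.4 and 23.7 TPM, than in any control. Tumor GB359 had 41.5 TPM, within the control range of 38.5 to 64.8 TPM, and adjacent cerebellum had 37.2, 44.4 and 30.7 TPM. The log2 difference of the tumors from the controls was −0.94 (SE 0.24, adjusted p = 0.00465), so it passed the p threshold and missed the fold minimum. It was called lower without tumor GB359 (−1.28, adjusted p = 0.000210) and without control GB517 (−1.02, adjusted p = 0.00392). The ratio of Sox2 to Sox1 was between 0.650 and 1.06 in the tumors and between 1.92 and 2.78 in the controls.

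The long noncoding gene Sox2ot, which overlaps Sox2 on the same strand, was called lower. It had 5.32, 7.17 and 3.88 TPM in the tumors, 12.3, 17.1 and 13.8 TPM in adjacent cerebellum and between 19.3 and 31.9 TPM in the controls, with no overlap between tumors and either group. Its log2 difference from the controls was −2.05 (SE 0.19, adjusted p = 3.33e-06). The overlap is one of gene spans, and shared exon sequence was not checked. Whether the transcript quantification divided reads between the genes was not tested.

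Sox3, the X-linked SoxB1 gene, was low in every sample. The tumors had 3.68, 3.46 and 2.98 TPM and adjacent cerebellum 1.85, 1.50 and 1.10 TPM. The controls had between 0.453 and 1.45 TPM except for GB512, whose 6.46 TPM was the highest value of all 12 samples. Against all 6 controls the log2 difference was 0.94 (SE 0.45, adjusted p = 0.0854) and was not called, but without GB512 it was 1.28 (adjusted p = 0.000173) and was. Its call against the Brca2-WT;Trp53-mut cerebella compares 2.98 TPM or more with 0.801 TPM or less. With all 4 groups in 1 fit it was not called (adjusted p = 0.0195).

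The SoxE genes differed in direction. Sox9, the astrocyte and Bergmann glia factor, measured 42.6, 68.0 and 48.6 TPM in the tumors against 19.0 to 29.6 TPM in the controls, and these groups did not overlap. Its log2 difference was 1.14 (SE 0.16, adjusted p = 0.000101), 2.28 times the control mean. Without tumor GB359 it was 0.95 (adjusted p = 0.000365) and missed the fold minimum. Sox8 measured 24.4, 16.5 and 12.5 TPM in the tumors and between 26.5 and 44.3 TPM in the controls, again without overlap but in the opposite direction. Its log2 difference of −0.80 (SE 0.21, adjusted p = 0.00605) missed the fold minimum, and without tumor GB344 it was −1.05 (adjusted p = 0.000972) and was called. The ratio of Sox9 to Sox8 was from 1.75 to 4.11 in the tumors and from 0.481 to 0.995 in the controls.

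Sox2, Sox8 and Sox9 belong to glia in the mature cerebellum, so glial markers were set beside them. Of 11 astrocyte and Bergmann glia markers, 10 were called lower in the tumors than in the controls and none higher, with a median log2 difference of −2.88. Their summed level was between 408 and 671 TPM in the tumors and between 2521 and 3125 TPM in the controls, and none was at 0. Gfap alone was not called (log2 difference −0.20, adjusted p = 0.491). Sox9 was thus called higher where the markers Slc1a3, a glutamate transporter (−2.44), Aldh1l1 (−2.09) and Aqp4, the water channel of astrocyte endfeet (−2.88), were called lower, and the difference of Sox2 was smaller than that of any of the 10.

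Of 10 oligodendrocyte-lineage markers, 5 were called lower and 3 higher. The 5 were Mbp, Mag, Mog, Cnp and Ugt8a, which make myelin, with log2 differences from −2.72 to −4.64. The 3 were Pdgfra (3.50), Cspg4 (1.46) and Olig2 (1.70), which mark precursors of the lineage, and Olig2 and Pdgfra also occur in other progenitors. Sox10, the SoxE gene of the lineage, was between 23.2 and 31.1 TPM in the controls and 12.4, 19.4 and 21.4 TPM in the tumors, a log2 difference of −0.63 (SE 0.17, adjusted p = 0.00604) that, like that of Sox8, missed the fold minimum.

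**Figure D3:**
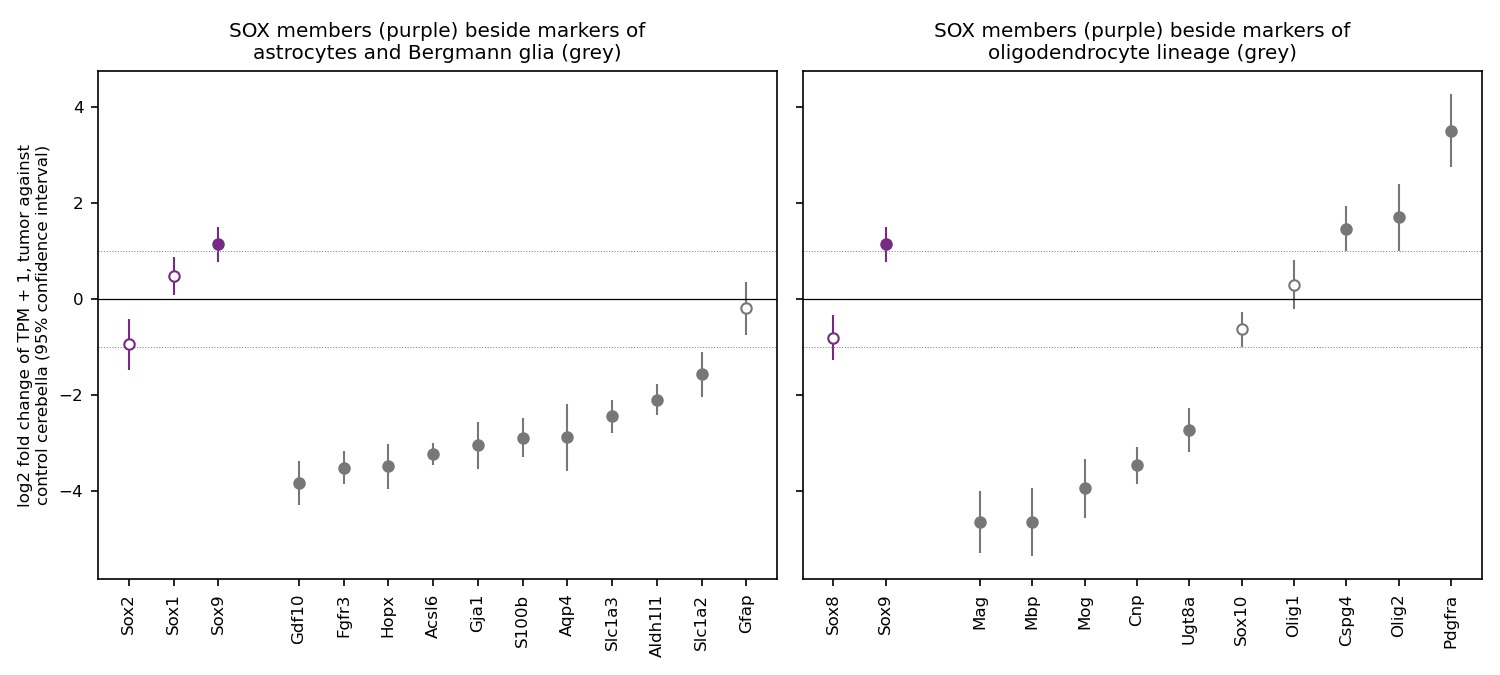
Log2 differences of TPM + 1 between tumors (n = 3) and controls (n = 6) with 95% confidence intervals from limma, for SOX members (purple) and for markers of astrocytes and Bergmann glia (left, grey) and of the oligodendrocyte lineage (right, grey). Filled points were called and dotted lines mark a log2 difference of 1 in each direction: Sox9 lies at 1.14 on the opposite side of 0 from 10 called astrocyte markers, and Sox2 lies at −0.94.

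The SoxD genes gave no call. Sox5 was the most variable member between tumors relative to its mean, at 5.40, 23.6 and 11.2 TPM in GB344, GB359 and GB370, against 9.26 to 12.2 TPM in the controls and 11.0, 11.8 and 9.75 TPM in adjacent cerebellum. GB344 was below and GB359 above all 9 non-tumor samples. The log2 difference from the controls was 0.10, with a 95% interval from −0.63 to 0.82, and without tumor GB359 its sign turned (−0.40). Sox6 was between 3.39 and 4.60 TPM in the tumors and between 4.12 and 6.74 TPM in the controls, with overlap and a log2 difference of −0.30 (95% interval −0.64 to 0.04). Both genes have several coding transcripts, with up to 15 exons in Sox5 and 17 in Sox6, and only gene sums were compared.

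Tumor was compared with adjacent cerebellum of the same mice, in a fit that did not pair the samples by mouse. In it, 2 of the 10 members, Sox4 and Sox12, were called higher in tumor, where 4.76% of the 15845 genes tested were. None was called lower (18.0% of genes), and none was lower at an unadjusted p under 0.05, while 5 were higher. At an adjusted p under 0.05 without a fold minimum 4 members were higher, where 18.1% of genes were. The median log2 difference of the members was 0.61, beside −0.14 for all genes. Of all genes called, 20.9% were higher, and 34.4% were after median-of-ratios scaling and 42.2% after quantile normalization. Sox4 differed by 2.07 (SE 0.41, adjusted p = 0.00647) and Sox12 by 1.85 (SE 0.38, adjusted p = 0.00722). Sox11 differed by 2.56 (SE 0.64, adjusted p = 0.0151), Sox3 by 0.83 (SE 0.19, adjusted p = 0.0105) and Sox9 by 1.01 (SE 0.38, adjusted p = 0.0627), and none of these was called. For each the 3 tumors were above the 3 adjacent samples, but how many of all genes separated in this way was not counted. No member was called when tumor GB344, GB359 or GB370 or adjacent GB359 was left out, and Sox4, Sox11 and Sox12 were called without adjacent GB344 or adjacent GB370.

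The size of the difference depended on the mouse. For Sox4 the tumor exceeded its own adjacent tissue by 1.197, 2.10 and 2.92 on the log2 scale in GB344, GB359 and GB370. Sox11 gave 1.08, 2.40 and 4.20, and Sox12 gave 1.22, 1.54 and 2.78. Sox9 gave 0.08, 1.21 and 1.73, and Sox2 gave −1.06, −0.10 and −0.36. For all 3 SoxC genes GB344 had the smallest difference and GB370 the largest, which is also the order, from high to low, of the progenitor marker sums in the adjacent samples (585, 460 and 77.7 TPM). The part of progenitor cells in the adjacent levels was not tested.

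**Figure D4:**
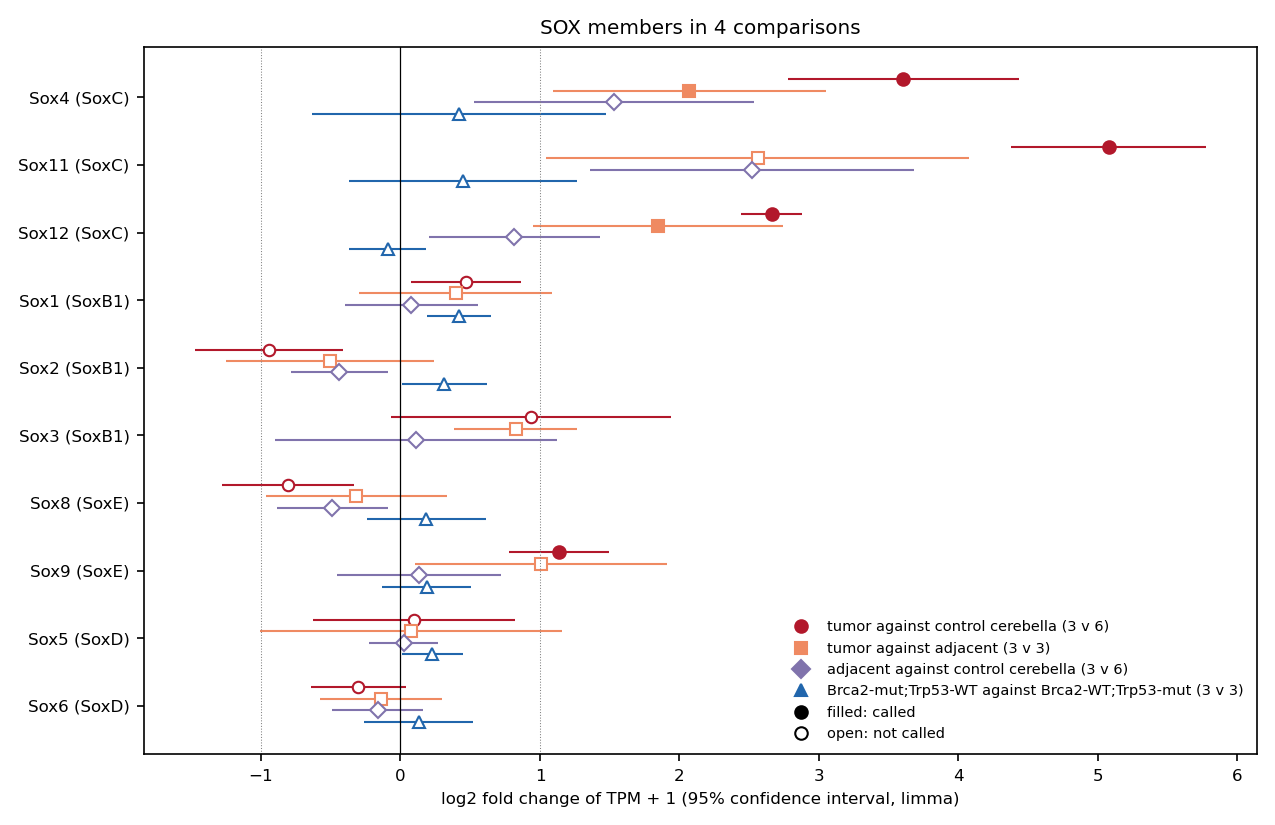
Log2 differences of TPM + 1 with 95% confidence intervals (limma) for the 10 members in 4 comparisons. Filled symbols were called, open symbols were not, and dotted lines mark a log2 difference of 1 in each direction: the 3 SoxC genes lie furthest to the right, from 2.66 to 5.08 in tumors against controls, and Sox3 is missing from the comparison of control genotypes, where it was under the expression filter.

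Adjacent cerebellum itself was compared with the 6 controls, and none of the 10 members was called higher (0.224% of the 16091 genes tested were) or lower (0.0124%) with limma. At an unadjusted p under 0.05, Sox4, Sox11 and Sox12 were higher and Sox2 and Sox8 lower, but the share of all genes at that p was not counted. At an adjusted p under 0.05 without a fold minimum Sox4 and Sox11 were higher, as were 10.1% of genes. Sox11 differed by 2.52 (SE 0.52, adjusted p = 0.0183), Sox4 by 1.53 (SE 0.45, adjusted p = 0.0458) and Sox12 by 0.82 (SE 0.28, adjusted p = 0.0691). Each overlapped the controls through GB370, whose 4.14 TPM of Sox11, 15.7 TPM of Sox4 and 10.8 TPM of Sox12 lay within the control ranges, for Sox11 and Sox4 because of control GB512. Without adjacent GB370, Sox11 (3.29, adjusted p = 0.000452) and Sox12 (1.27, adjusted p = 0.000407) were called. The progenitor marker Atoh1 was called in this comparison, at 59.4, 50.5 and 4.997 TPM in adjacent GB344, GB359 and GB370 and at most 0.212 TPM in the controls. It entered the test through the adjacent samples alone. The median log2 difference was 0.09 over the members and 0.07 over all genes, and of the genes called 94.7% were higher, or 69.5% after quantile normalization.

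**Figure D5:**
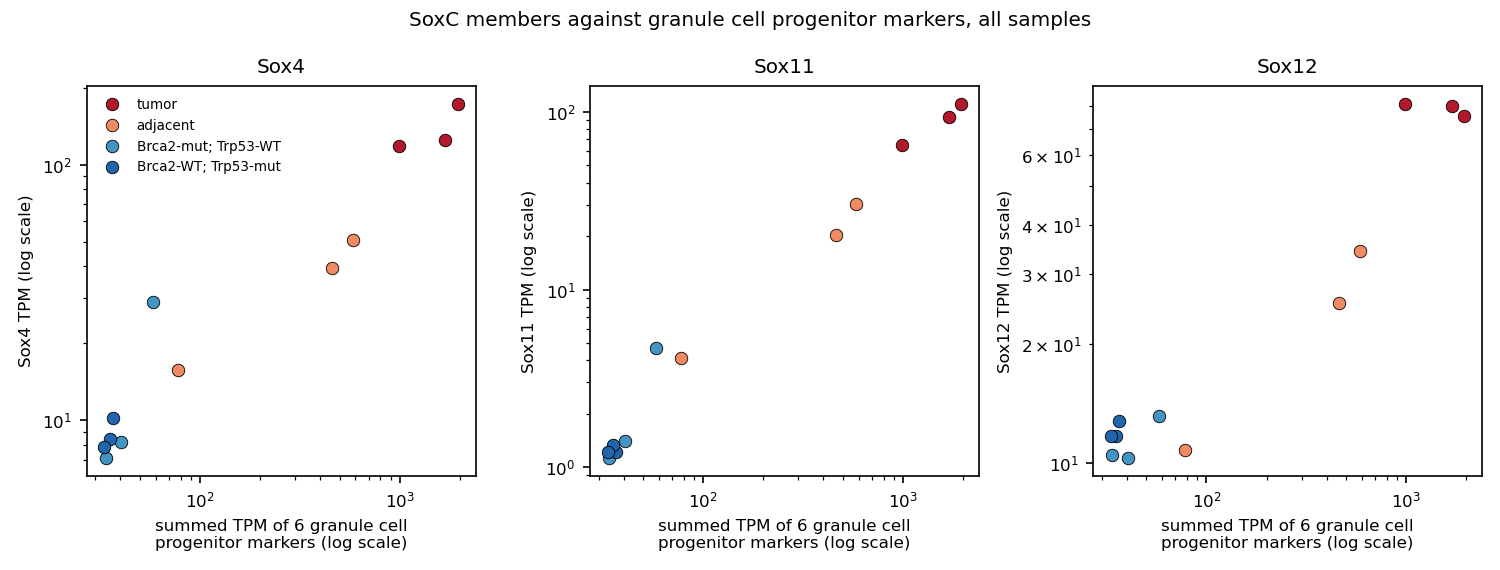
TPM of Sox4, Sox11 and Sox12 against the summed TPM of 6 granule cell progenitor markers (Atoh1, Barhl1, Gli1, Ccnd2, Mki67, Top2a) in the 12 samples, on log axes. Adjacent GB344 and GB359, at marker sums of 585 and 460 TPM, lie between the tumors and the controls in each panel, and control GB512, at 58.0 TPM, lies above the other 5 controls for Sox4 and Sox11.

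The control genotypes were compared last. None of the 9 members tested was called higher (0.0128% of the 15575 genes tested) or lower (0.0449%) in Brca2-mut;Trp53-WT than in Brca2-WT;Trp53-mut cerebellum with limma. At an unadjusted p under 0.05 Sox1, Sox2 and Sox5 were higher and none lower, but the share of all genes at that p was not counted. Sox1 had 22.4, 25.7 and 26.8 TPM against 18.1, 19.8 and 17.3 TPM, without overlap (log2 difference 0.42, SE 0.099, adjusted p = 0.0949). Sox5 also did not overlap, at 11.2 to 12.2 TPM against 9.26 to 10.1 TPM (log2 difference 0.23, adjusted p = 0.236). How many of all genes separated in this way was not counted. Sox2 differed by 0.31 (adjusted p = 0.236). Sox3 was under the filter, and an exact two-sided permutation test of its log2 difference of 0.78 gave p = 0.4, where the smallest p that 20 arrangements allow is 0.1. The median log2 difference was 0.23 over the members and −0.07 over all genes. Of the 9 genes called, 22.2% were higher, or 50% of those called after median-of-ratios scaling and 66.7% after quantile normalization. Choroid plexus markers summed to between 25.1 and 876 TPM in the former genotype and between 3952 and 5163 TPM in the latter, and their part in these values was not tested.

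Genes known as partners or targets of each class were counted from lists, to be read beside the 14.4% of all genes called higher and 21.5% called lower in the same comparison. The lists were chosen with earlier results of these data known, so the counts are a description and no test of enrichment. Of 4 SoxC targets, Dcx, a microtubule protein of migrating neurons (log2 difference 4.63), Tead2, a transcription factor of the Hippo pathway (5.03), and Stmn1, a microtubule-destabilizing protein (1.63), were called higher in tumors than in controls, and the neuronal tubulin Tubb3 (0.35, adjusted p = 0.0746) was not. Tead2 stood at 172, 142 and 146 TPM in the tumors, 62.8, 37.6 and 7.64 TPM in adjacent cerebellum and between 2.70 and 4.39 TPM in the controls. Of 8 SoxB1 partners and targets, 5 were called higher and none lower. These were the POU factors Pou3f2 (2.18) and Pou3f4 (1.46), the RNA-binding protein Msi1 (1.77), the intermediate filament gene Nes (1.63) and the lipid-binding protein Fabp7 (1.55), while Sox2 and Sox1 themselves were not called. Of 6 SoxE partners and targets, 3 were called higher, namely Nfia (2.20), Nfib (2.29) and Olig2 (1.70), and 2 lower, namely Mbp (−4.63) and Slc1a3 (−2.44).

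Outside the 10 members, 9 further SOX genes were read from the table, and 6 passed the filter. Sox18, an endothelial and lymphatic factor of class SoxF, was called higher and Sox21, a SoxB2 repressor, lower. Sox18 reached 139, 189 and 269 TPM in the tumors, above Sox4 in each of them, with 81.2, 63.3 and 13.2 TPM in adjacent cerebellum and between 4.73 and 9.68 TPM in the controls (log2 difference 4.57, SE 0.23, adjusted p = 5.35e-08). None of 5 endothelial markers was called with limma (at an unadjusted p under 0.05, 3 were higher and 1 lower), their sum was between 91.0 and 140.4 TPM in the tumors and between 70.5 and 86.7 TPM in the controls, and neither other SoxF gene was called. Sox7 was at 1.99 to 2.84 TPM in the tumors and 0.830 to 1.21 TPM in the controls (log2 difference 0.75, adjusted p = 0.000444), and Sox17 at 1.65 to 3.60 and 4.36 to 5.81 TPM (−0.83, adjusted p = 0.00167), so that both missed the fold minimum, in opposite directions. Sox21 had between 2.58 and 3.49 TPM in the tumors and between 7.18 and 12.01 TPM in the controls (log2 difference −1.23, SE 0.17, adjusted p = 9.52e-05).

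For each member the 3 genes with the most similar pattern were found, by the mean absolute difference of log2(TPM + 1), each gene centred on its own mean, over the 12 samples and among 10906 genes. The 12 values include samples of 1 mouse and share the same 4 groups, so this is a description. Nearest to Sox11 were Pif1, a helicase that unwinds G-quadruplexes (mean difference 0.115), Basp1, a growth-cone protein (0.123), and Tk1, a thymidine kinase of the S phase (0.143). Sox12 lay closest to Cdca4 (0.0818), Ptma (0.102) and Mis18a (0.102), and Sox4 to the homeobox gene Lhx2 (0.204), the replication helicase subunit Mcm7 (0.221) and Iqgap3 (0.227). Sox2 was nearest to Trove2 (0.138), the microglial receptor gene P2ry12 (0.146) and Csrp1 (0.159), and Sox1 to P2rx7 (0.176), Amz1 (0.181) and Bckdha (0.181). Sox9 lay closest to the immediate-early gene Ier2 (0.146), 2900092D14Rik (0.154) and Cbx5 (0.154), and Sox8 to the receptor gene Notch1 (0.162), Fmo1 (0.165) and Gulp1 (0.168). The nearest genes of Sox5 were Rftn2 (0.127), Akr1e1 (0.128) and Trim8 (0.141), and those of Sox6 were Vcam1 (0.130), Fer1l5 (0.144) and Fam208a (0.149). For Sox3, Elk3 (0.265), Lrrc25 (0.266) and Irf5 (0.271) came nearest, the loosest matches of the 10.

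Little sequence was shared between members: the transcripts of Sox4 and Sox11 had 18 stretches of 31 bases in common, 0.378% of those of Sox4, the most of any pair, and those of Sox1 and Sox3 had 15, 0.737% of those of Sox3. Sox4, Sox5, Sox6 and Sox8 overlap annotated genes on the opposite strand, and Sox1, Sox2 and Sox5 overlap noncoding genes on their own strand. These are overlaps of gene spans, and overlap of exons was not checked. The library was not stated to keep strand, so reads of such partners might not be told apart where exons overlap, which was not tested.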

How the data were processed

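Polyadenylated RNA of 12 mouse samples was sequenced in 75-base reads. The authors quantified transcripts with Salmon (version 0.8.1) on mm10 known-gene transcripts, and the deposited values are TPM per gene, all 12 columns of which were used. Each sample sums to nearly the same total, so TPM is relative within a sample and a large change in some genes moves the others, and read depth and counting intervals are unknown.

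For each comparison, a gene entered the test where 3 or more of its samples reached 1 TPM. Tests were made on log2(TPM + 1) with limma (version 3.58.1 in R 4.3.3, intensity trend), adjusted by Benjamini-Hochberg over all genes tested, and called at an adjusted p under 0.01 and a log2 difference of at least 1. Values in TPM are means ± SD, and log2 differences carry limma's standard error. A member under the filter was tested by exact permutation. The procedure was tested on simulated data with like spread in every group and no pairing by mouse, unlike the data here. 1 gene of the marker and target lists is not reported here. The 10 members, the marker, partner and target lists and the tests were chosen with earlier results of these data known. All members and the 3 genes most like each are named, with list genes that were called or are set beside a member, the nearest genes by the mean absolute difference of centred values among genes with a log2 range of at least 1, and Sox7, Sox10 and Sox17 because of their cell types. Promoter windows, gene positions and overlaps are from RefSeq (GRCm38.p6) and GENCODE.

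Tumor and adjacent samples are paired by mouse, from the same animals per the labels, and across genes their deviations from the group means correlated at 0.249, 0.176 and 0.152 in GB344, GB359 and GB370. Alternatives were another pseudocount, other filters, scalings, thresholds and controls, a fit without the trend, a fit of all groups, a block for mouse and leaving out each sample.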

Additional observations from a re-analysis of the deposited data

Results flagged for a closer look

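Control GB512, a Brca2-mut;Trp53-WT cerebellum, stood far above the other 5 controls for 3 members, by the gap to the next value over the range of the 6. It had 6.46 TPM of Sox3, where the gap was 0.834 of the range, 29.1 TPM of Sox4 (0.861) and 4.72 TPM of Sox11 (0.922), each beyond Dixon's 95% limit for 6 samples. Chance alone marks about 1 in 20 such groups, and the 10 members were looked at on both sides. The same sample had 5.63 TPM of Mki67 and 191 TPM of summed microglia and macrophage markers, against at most 114 TPM in the other 5 controls. It also had 47.1 TPM of Olig2, 149 TPM of Olig1 and 17.3 TPM of Nes. The other 5 controls had at most 24.7, 88.4 and 7.88 TPM of these genes. The part of any of these in the SOX values was not tested.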

How the results depend on the processing

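The calls of Sox4, Sox11 and Sox12 against the controls held under every alternative tried, and leaving out 1 sample gave 3 to 5 members called higher and 0 to 1 lower. In all 5 comparisons, 706 of 758 recomputed log2 differences of members kept direction and call, and 132 of 156 counts of members called equalled the count reported. Other scalings moved the median of all genes by up to 0.26, in tumor against adjacent cerebellum under quantile normalization. At an adjusted p under 0.05 without a fold minimum, members called lower were 2 against the controls (Sox2 and Sox8, with 39.5% of all genes) and 1 against Brca2-WT;Trp53-mut (Sox8, with 38.1%), and members called higher were 4 against adjacent cerebellum (18.1% of all genes) and 2 in adjacent cerebellum against the controls (10.1%). Members called higher at that threshold were 5 against the controls and 6 against Brca2-WT;Trp53-mut, with Sox1 added in both. The share of all genes is not given for these counts. Tumor against adjacent cerebellum had 0 members called higher without a filter and 4 (Sox3, Sox4, Sox11 and Sox12) after quantile normalization and 0 to 3 when 1 sample was left out. With mouse as a replicate block, 2 members were called there as without it (Sox4 2.07, adjusted p = 0.00710, and Sox12 1.85, adjusted p = 0.00912), and the block changed no other member's call. Sox11 was also called there with all 4 groups in 1 fit (adjusted p = 0.00248). Leaving out 1 sample gave 0 to 1 called lower against Brca2-WT;Trp53-mut and 0 to 2 called higher in adjacent cerebellum against the controls.

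Directions turned only for log2 differences that were not called. Leaving out 1 sample, Sox5 ranged from −0.40 to 0.58 against the controls, −0.42 to 0.55 against adjacent cerebellum and −0.28 to 0.69 against Brca2-WT;Trp53-mut. In adjacent cerebellum against the controls Sox9 ranged from −0.19 to 0.54, Sox1 from −0.20 to 0.31, Sox5 from −0.036 to 0.090 and Sox3 from −0.019 to 0.45, and between the control genotypes Sox4 from −0.18 to 0.77 and Sox8 from −0.025 to 0.33. Median-of-ratios scaling gave 0.010 for Sox6 against adjacent cerebellum and −0.045 for Sox5 in adjacent cerebellum against the controls. Quantile normalization gave 0.28 for Sox6 against adjacent cerebellum, 0.035 for Sox6 against Brca2-WT;Trp53-mut, −0.034 for Sox1, −0.054 for Sox3 and −0.13 for Sox5 in adjacent cerebellum against the controls, and 0.0078 for Sox12 between the control genotypes. With only Brca2-mut;Trp53-WT controls Sox5 was −0.018. The causes were not tested.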

Other observations

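The marker lists not set beside a SOX gene above were also compared between tumors and controls (limma, Benjamini-Hochberg over all genes tested). Of all genes tested, 14.4% were called higher and 21.5% lower. All 6 markers of mature granule neurons, all 5 of Purkinje cells and all 5 of cerebellar interneurons were called lower, with median log2 differences of −4.30, −5.31 and −4.39. Their summed levels in the tumors reached at most 440.1, 265 and 203 TPM, below the lowest control sums of 3054, 4174 and 2031 TPM. All 6 granule cell progenitor markers were called higher, with a median of 6.10. Of these, Atoh1 was under 1 TPM in all 6 controls and entered the test through the tumors alone. Mki67 and Top2a were under 1 TPM in every control but GB512. Of 5 microglia and macrophage markers, Aif1 and the complement genes C1qa and C1qb were called higher and none lower. Of 5 choroid plexus markers Kcnj13 was called lower and none higher, near the share of all genes called lower. Choroid plexus sums were between 6.20 and 47.7 TPM in the tumors. This range overlapped that of the Brca2-mut;Trp53-WT controls (25.1 to 876 TPM) and not that of the Brca2-WT;Trp53-mut controls (3952 to 5163 TPM).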
